A study of Mus musculus with 16 samples.

Results

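The genes described here are 36 genes of fatty acid and triglyceride synthesis, chosen by name as known enzymes and regulators of the pathway and found in the deposited table of 25719 genes. They fall into 4 transcription factors, 7 genes of acetyl-CoA and malonyl-CoA supply, 5 genes of fatty acid synthase and of NADPH and pyruvate supply, 4 desaturase genes, 7 elongation genes, 8 genes of triglyceride synthesis and remodelling, and Rdh11. RNA of whole liver was sequenced from 16 mice, 1 library per mouse, to ask how a diet that induces fatty liver acts on the liver and what the loss of NKG2D, the receptor encoded by Klrk1, changes. WT mice of the strain C57BL6J were fed a normal chow diet (NCD, 4 mice, numbered 1, 2, 3 and 5) or the steatosis-steatohepatitis diet (SSD, 5 mice), which is enriched in animal fat, fructose and cholesterol. Mice labelled Klrk1 KO (strain label NKG2D) were fed NCD (4 mice) or SSD (3 mice). According to the methods of the study, the mice were males of 8 to 12 weeks, matched for age, and the diet was given for 3 weeks before RNA sequencing. The Klrk1 KO mice lack the gene in every tissue, so no cell type is singled out by the design. The labels do not say whether the mice were littermates.

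The liver makes fatty acids from carbohydrate by turning citrate into cytosolic acetyl-CoA, carboxylating it to malonyl-CoA, and joining the units in fatty acid synthase at the cost of NADPH. The product is elongated, desaturated and esterified on a glycerol backbone to triglyceride. The genes of this route are known targets of the transcription factors SREBP1 (Srebf1), ChREBP (Mlxipl) and the oxysterol receptors LXR-alpha and LXR-beta (Nr1h3 and Nr1h2), and several share regulation with cholesterol synthesis through SREBP2.

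Each mouse had 19892025 to 28936707 reads on genes, and the values given below are normalized counts, in which the authors divided the reads of each mouse by 1 factor. Klrk1 had 19 to 87 reads in each WT mouse and 1 to 7 reads in each Klrk1 KO mouse. All 36 members passed the minimum mean of 10 normalized counts in every comparison. In whole tissue, fewer cells of a type and less RNA per cell cannot be told apart. The 6 hepatocyte markers summed to 2327200 to 2629760 normalized counts in NCD-fed WT mice and 1447930 to 1869040 in SSD-fed WT mice. In Klrk1 KO mice the same sum was 2230650 to 2959910 on NCD and 1974470 to 2128540 on SSD. Of these 6 markers, 4 fell on SSD in WT mice and 5 in Klrk1 KO mice. The 8 macrophage markers summed to 4430 to 5198 on NCD and 5400.1 to 12906 on SSD in WT mice, and the 6 stellate cell markers to 4861 to 6169 and 5435 to 25531. In Klrk1 KO mice the macrophage sum was 4006 to 4848 on NCD and 4575 to 5623 on SSD, and the stellate cell sum 4702 to 6351 and 6892 to 8362, with no overlap. Of 5 endothelial markers, 4 rose on SSD in WT mice and 1 in Klrk1 KO mice. The test of the difference between the genotypes in the diet response called 0 of these 5, 0 of the 6 hepatocyte markers and 0 of the 6 stellate cell markers. Of the 8 macrophage markers it called 1, Cd68, with a negative value (Klrk1 KO minus WT). Cd68 was also called lower in SSD-fed Klrk1 KO mice than in SSD-fed WT mice. Among all genes tested, 17.3% were called higher and 17.6% lower on SSD in WT mice, and 13.4% and 16% in Klrk1 KO mice. Of 7 adipocyte markers, the defining Adipoq, Plin1 and Lep were at or near 0 in every mouse, at most 1.99 normalized counts, while the list summed to 1279.5 to 1549 on NCD and 2244 to 3509 on SSD in WT mice, and to 1597 to 1946 and 2569 to 2710 in Klrk1 KO mice, with no overlap between the diets in either genotype. Only 3 of these 7 reached the minimum mean in each genotype. In WT mice Cfd, Fabp4 and Pnpla2 rose on SSD, and in Klrk1 KO mice Pnpla2 alone was called. Pnpla2 is also counted on a list of acyl-CoA and glycerolipid genes below, so these sums do not single out adipocytes. The part of these marker changes in the diet differences below was not tested. SSD-fed WT mouse 1 stood apart from the others of its group, with 5027 normalized counts of the stellate cell marker Col1a1 against 358 to 1499. Mitochondrial genes took 11.9% to 16.8% of the reads in NCD-fed Klrk1 KO mice and 7.77% to 11.6% in NCD-fed WT mice, so these groups did not overlap. On SSD the share was 7.66% to 9.06% in Klrk1 KO mice and 6.90% to 7.94% in WT mice.

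Scd1, the main stearoyl-CoA desaturase of liver, was the most abundant member per length in all 4 groups. In NCD-fed WT mice it reached 76812 ± 13878 normalized counts per kilobase (SD, n = 4), and 0.44% to 0.72% of all reads on genes fell on this 1 gene. The next level per kilobase was Dgat2 at 11427 ± 955, which makes triglyceride from diacylglycerol, followed by Thrsp at 10939.8 ± 2229. Dgat2 and Thrsp did not differ beyond their spread. Thrsp moved from rank 3 of the 36 in NCD-fed WT mice to rank 21 in SSD-fed WT mice, and from rank 7 to rank 29 in Klrk1 KO mice. Acss2 moved from rank 14 to rank 29 in WT mice. Elovl5 stood at rank 5 in NCD-fed WT mice and at rank 2 in the 3 other groups. Together the 36 members took 1.1% to 1.6% of the reads in NCD-fed WT mice and 1.04% to 1.56% in SSD-fed WT mice. In Klrk1 KO mice they took 1.3% to 1.51% on NCD and 1.03% to 1.22% on SSD, so that the diets did not overlap in this genotype.

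The promoters were read because many members are textbook SREBP targets. The 250 bases before the annotated start of each member's canonical transcript (GENCODE M39 on GRCm39) were searched on both strands for TCACNCCAC, the core of the sterol regulatory element, for the E-box CACGTG and for the CCAAT box CCAAT. The core was found in 4 of 36 members, Acss2, Acaca and Mlxipl among them, and in 1.12% of 21770 protein-coding promoters of the same length. The E-box was found in 2 members (Acaca and Lpin2) and in 6.26% of all promoters, and the CCAAT box in 14 members and in 36.5% of all promoters. Of the 18 members that were lower on SSD in WT mice, 2 hold the core, and of the 18 others also 2. Matches of different motifs did not overlap in any member. The promoters of Acss2, which fell on SSD, and of Acaca and Mlxipl, which were not called, are shown together with that of Thrsp, the member with the greatest fall, which holds none of the 3 motifs in this window. Capitals mark the matches. The windows are chr2:155359618-155359867, plus strand, for Acss2, chr11:84063698-84063947, plus strand, for Acaca, chr5:135135505-135135754, plus strand, for Mlxipl, and chr7:97066938-97067187, minus strand, for Thrsp.
Acss2: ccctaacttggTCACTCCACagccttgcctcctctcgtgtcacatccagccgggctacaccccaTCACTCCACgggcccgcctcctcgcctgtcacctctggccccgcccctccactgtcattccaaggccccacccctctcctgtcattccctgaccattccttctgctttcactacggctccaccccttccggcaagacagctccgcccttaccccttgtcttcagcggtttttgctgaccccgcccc
Acaca: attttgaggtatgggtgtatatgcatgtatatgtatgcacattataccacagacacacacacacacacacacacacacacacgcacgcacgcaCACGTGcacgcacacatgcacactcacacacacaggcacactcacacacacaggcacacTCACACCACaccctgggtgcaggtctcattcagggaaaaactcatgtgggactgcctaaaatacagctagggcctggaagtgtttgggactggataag
Mlxipl: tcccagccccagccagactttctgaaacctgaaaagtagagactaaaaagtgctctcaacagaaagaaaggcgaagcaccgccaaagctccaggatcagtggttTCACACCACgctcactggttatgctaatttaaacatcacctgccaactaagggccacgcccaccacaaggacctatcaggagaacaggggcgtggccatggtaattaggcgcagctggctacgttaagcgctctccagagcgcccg
Thrsp: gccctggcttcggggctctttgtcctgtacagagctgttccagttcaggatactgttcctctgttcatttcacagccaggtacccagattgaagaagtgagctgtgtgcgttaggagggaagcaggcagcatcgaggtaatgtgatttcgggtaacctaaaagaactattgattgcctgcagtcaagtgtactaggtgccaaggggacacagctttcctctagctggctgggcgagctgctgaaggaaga
Acss2 holds 2 copies of the core, which start 239 and 186 bases before the transcript. In Mlxipl the core starts 146 bases and in Acaca 98 bases before the transcript. The windows of Acaca and Mlxipl lie inside the spans of these genes in the deposited table, which begin at chr11:84020498 and chr5:135118744. They precede the start of the canonical transcript and not that of the counted gene. A match of letters is a description of the sequence and does not show that a factor binds there.

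On SSD, WT mice had lower levels of 18 of the 36 members and a higher level of 1, Lpin2, by limma's test with Benjamini-Hochberg adjustment and a threshold of 0.05 on the adjusted p. Among the 13091 genes in this test, 17.6% were called lower and 17.3% higher. The median log2 fold change of the members was -0.38, beside -0.00 over all genes tested. The falls were uneven along the pathway. They took in 6 of 7 genes of acetyl-CoA and malonyl-CoA supply (median log2 fold change of the group -1.85), 3 of 7 elongation genes, 4 of 8 genes of triglyceride synthesis, 2 of 5 genes around fatty acid synthase, 1 of 4 desaturase genes, 1 of 4 transcription factors, and Rdh11. Of the 18 falls, 14 were greater than 1.5-fold. When every mouse was instead scaled to the same total, the median of all genes moved by 0.34 and the calls became 14 lower and 7 higher, beside 5.5% of all genes lower and 48.2% higher. With quantile normalization they were 15 lower and 3 higher, beside 15.9% and 15.5% of all genes. Of the 19 members called, 15 remained called under all 20 alternatives, and the exceptions were Nr1h3, Agpat2, Dgat2 and Pgd. Without SSD-fed WT mouse 1, 20 members were called, beside 34.2% of all genes.

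**Figure D1:**
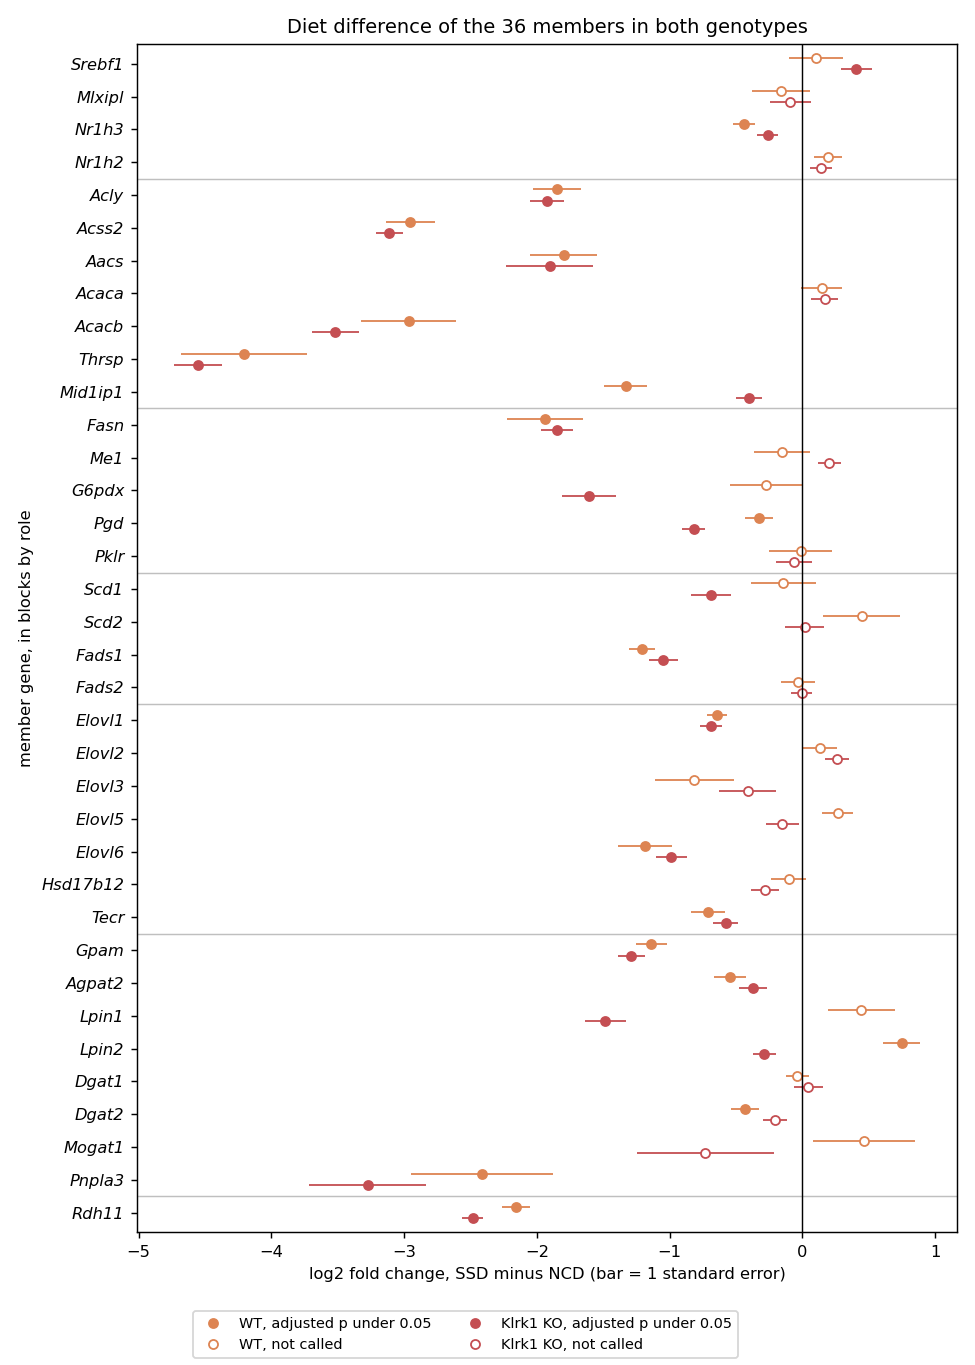
Log2 fold change of SSD against NCD (x axis, on the scale of log2 of the normalized count + 1) for the 36 members (y axis, in blocks by role), with 1 standard error as the bar, in WT mice (orange) and Klrk1 KO mice (red); filled points had an adjusted p under 0.05. Thrsp lies farthest to the left in both genotypes, at -4.20 and -4.55, and Lpin1 and Lpin2 lie on opposite sides of 0 in the 2 genotypes.

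Of the 4 transcription factor genes, 1 was called in WT mice. Srebf1 (gene at chr11:60089915-60113407), whose protein SREBP1 is cut from a membrane precursor to become active, was at 5537, 6901, 5928 and 5246 normalized counts in the NCD-fed WT mice and at 4861, 8516, 9461, 4745 and 5385 in SSD-fed WT mice 1 to 5. Mice 2 and 3 were the highest of all 16, the other SSD-fed mice lay within or just below the range of the NCD-fed mice, and the difference was not called (log2 fold change 0.10, 95% interval -0.34 to 0.55, adjusted p = 0.722). Without mouse 2 or without mouse 3 its sign turned, to values of -0.00 and -0.04. The counts pool the SREBP1a and SREBP1c transcripts of this gene, and they do not measure the active protein.

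Mlxipl, which encodes the carbohydrate sensor ChREBP (chr5:135118744-135167236), was at 11572, 15447, 18244 and 19633 normalized counts on NCD and at 8374, 15190.5, 17096, 17123 and 15684 on SSD in WT mice. SSD-fed mouse 1 was far below the other 4, which lay within the NCD range, and no difference was called (log2 fold change -0.16, 95% interval -0.63 to 0.31, adjusted p = 0.597). Its sign turned without that mouse and under same-total and quantile scaling. For Mlxipl too, the counts pool the transcripts of the gene and do not measure the active protein. Pklr, the liver pyruvate kinase gene and a classical ChREBP target, had a log2 fold change of -0.01 (95% interval -0.53 to 0.50).

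Nr1h3, which encodes LXR-alpha (chr2:91014406-91033179), was at 3107, 2713, 2563 and 2523 normalized counts on NCD and at 1885, 2171, 2037, 1969 and 1964 on SSD. Every SSD-fed WT mouse was below every NCD-fed one, a 1.36-fold fall (log2 fold change -0.44, standard error 0.08, adjusted p = 0.0022). Scaled to the same total, the log2 fold change was -0.09 and was not called. The hepatocyte marker Alb had a log2 fold change of -0.46 in the same comparison (adjusted p = 0.277) and was not called. Its 1066880 to 1370800 normalized counts on SSD nevertheless lay below the 1584260 to 1865450 on NCD in every WT mouse. Over the 6 hepatocyte markers the median log2 fold change was -0.72, and 4 of them were called lower, beside 17.6% of all genes. Nr1h2, which encodes LXR-beta, ranged over 826 to 1056 normalized counts on NCD and 895 to 1178 on SSD, and was not called.

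**Figure D2:**
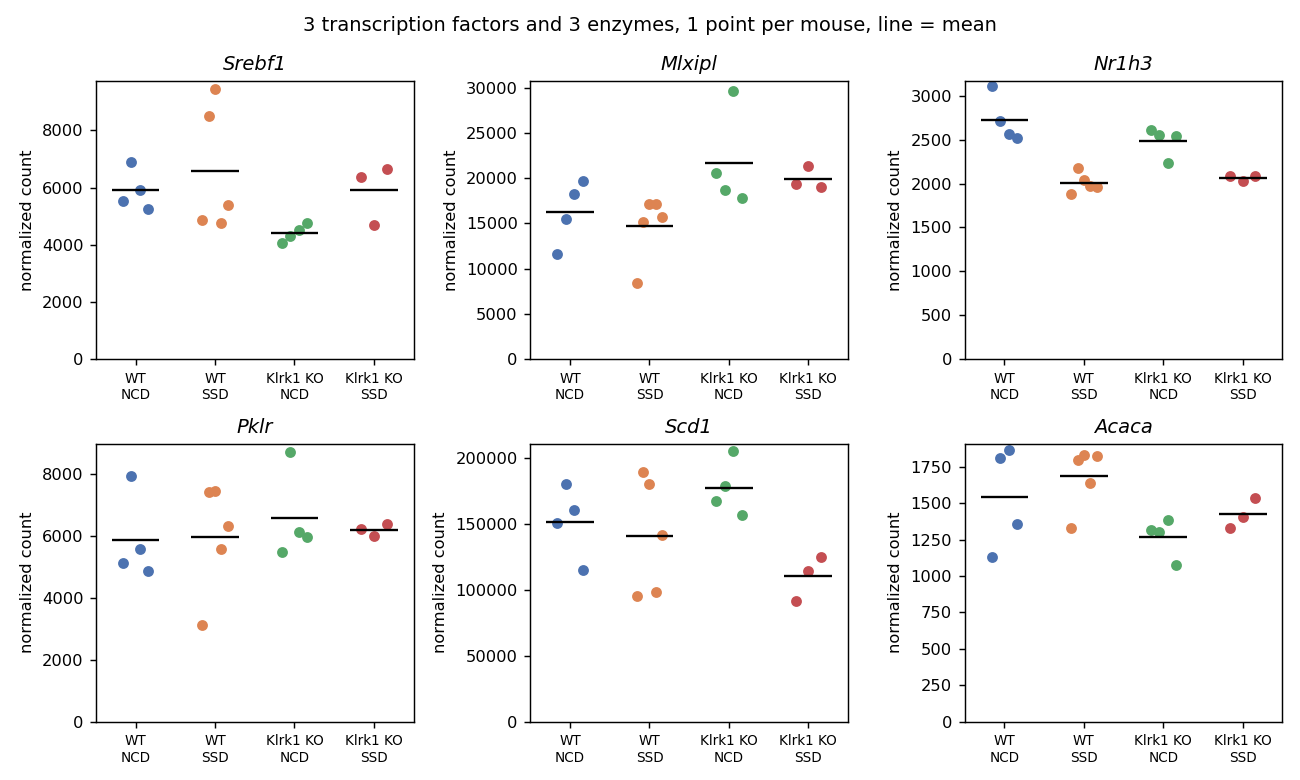
Normalized counts (y axis, from 0) of Srebf1, Mlxipl and Nr1h3 and of the enzyme genes Pklr, Scd1 and Acaca in the 4 groups (x axis), with 1 point per mouse and a line at the mean. Nr1h3 is lower in every SSD-fed WT mouse than in any NCD-fed WT mouse, while the points of Srebf1, Mlxipl, Pklr, Scd1 and Acaca overlap between the diets in WT mice.

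The greatest falls were in the supply of acetyl-CoA and malonyl-CoA. Thrsp, also called Spot 14, a nuclear and cytosolic protein that goes with lipogenesis (chr7:97062145-97066937), was at 11588, 17312, 17079.5 and 12569.9 normalized counts in NCD-fed WT mice and at 324, 1887, 1879.6, 583 and 432 in SSD-fed WT mice 1 to 5. Its fall was 18.4-fold (log2 fold change -4.20, standard error 0.48, adjusted p = 6.00e-05), and the exact two-sided permutation test gave p = 0.0159, the smallest that 4 mice against 5 allow. The highest SSD-fed mouse was more than 6-fold below the lowest NCD-fed one, and within SSD mice 2 and 3 stood well above the other 3. Mid1ip1, a relative of Thrsp whose protein promotes the polymerisation of acetyl-CoA carboxylase, went from 1666 ± 158 (SD, n = 4) to 677 ± 181 (SD, n = 5) normalized counts (log2 fold change -1.33, standard error 0.17, adjusted p = 0.000114).

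Acss2, which makes cytosolic acetyl-CoA from acetate (chr2:155359868-155427644) and has both cores in the promoter shown above, was at 5422, 8901, 8594 and 5865 normalized counts on NCD. On SSD it was at 652, 1127, 1075, 845 and 910.4, so the groups lay far apart (log2 fold change -2.95, standard error 0.18, adjusted p = 5.22e-07). Its span overlaps Gss on the opposite strand, which had a mean of 2204 normalized counts over all mice against 4547 of Acss2. Whether the counting used the strand is not given in the sources used here, so the level of Acss2 on SSD, which was below that mean of Gss, is uncertain. Acly, which cuts citrate to acetyl-CoA, went from 6357 ± 1807 (SD, n = 4) to 1732 ± 289 (SD, n = 5) normalized counts (log2 fold change -1.85, standard error 0.18, adjusted p = 1.94e-05). Aacs, which activates the ketone body acetoacetate for lipid synthesis, went from 2119.8 ± 918 (SD, n = 4) to 579.8 ± 131 (SD, n = 5) (log2 fold change -1.80, standard error 0.25, adjusted p = 0.000264).

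Of the 2 acetyl-CoA carboxylase genes, only Acacb was called. Acacb (chr5:114284596-114388822), whose enzyme at the mitochondrial surface makes the malonyl-CoA that restrains fatty acid oxidation, was at 1398, 2945, 2365 and 1471 normalized counts on NCD and at 95, 345, 328, 256 and 341 on SSD in WT mice. Each SSD-fed mouse was more than 4-fold below each NCD-fed mouse (log2 fold change -2.97, standard error 0.36, adjusted p = 9.37e-05), and mouse 1 was the lowest. Acaca, the cytosolic isoform that feeds fatty acid synthesis, was at 1134, 1812, 1868 and 1358 on NCD and 1327, 1795, 1828, 1639.8 and 1825 on SSD. These ranges overlapped, and the log2 fold change of Acaca was 0.15 (95% interval -0.19 to 0.48, not called). The window read for Acaca, like that of Acss2, holds a core, but it lies inside the span of the gene and not before it.

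Fasn, which encodes fatty acid synthase (chr11:120696672-120715373), was at 15102, 26085, 23430.1 and 16045 normalized counts in NCD-fed WT mice. In SSD-fed WT mice 1 to 5 it was at 2724, 7726, 7909.5, 4458 and 4725. The fall was 3.83-fold (log2 fold change -1.94, standard error 0.29, adjusted p = 0.000411), with mice 2 and 3 again the highest on SSD and mouse 1 the lowest. Among the NADPH sources, Pgd of the pentose phosphate pathway was lower by 1.26-fold with overlapping groups (log2 fold change -0.33, standard error 0.11, adjusted p = 0.0304). That call was lost in 8 of the 20 alternatives. G6pdx, the entry enzyme of the same pathway, ranged over 131 to 322 normalized counts on NCD and 101 to 248 on SSD, and the NADPH-making malic enzyme gene Me1 over 2219 to 4129 and 1736 to 3659. Neither was called. G6pdx shares its locus with Ikbkg on the opposite strand, which had a mean of 2179 normalized counts against 199 of G6pdx, so its values are uncertain.

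Among the desaturases only Fads1 was called in WT mice. Scd1 was at 150438, 179943, 160227 and 114673 normalized counts on NCD and at 95398, 189165, 179707, 98012 and 141583 on SSD, with the highest and the lowest mouse of both groups on SSD. It was not called (log2 fold change -0.14, 95% interval -0.68 to 0.39). Its close paralog Scd2 was low, between 134 and 523 normalized counts in WT mice, and how reads that fit both genes were counted is not given in the sources used here. The neighbours Fads1 and Fads2 on chromosome 19, which act in turn in the synthesis of polyunsaturated fatty acids, had unlike values. Fads1 went from 10335 ± 1124 (SD, n = 4) to 4457 ± 319 (SD, n = 5) normalized counts (log2 fold change -1.21, standard error 0.10, adjusted p = 3.90e-06), and Fads2 from 9131 ± 1566 (SD, n = 4) to 8874 ± 986 (SD, n = 5) (log2 fold change -0.03, 95% interval -0.31 to 0.24).

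Among the elongation genes, Elovl6, which lengthens palmitate to stearate, fell most, from 2028 ± 371 (SD, n = 4) to 912 ± 251 (SD, n = 5) normalized counts (log2 fold change -1.19, standard error 0.20, adjusted p = 0.00113). Elovl1, an elongase of very long saturated chains, fell 1.56-fold (log2 fold change -0.64, standard error 0.07, adjusted p = 6.58e-05). Tecr, the reductase that closes each elongation cycle, fell 1.64-fold (log2 fold change -0.71, standard error 0.13, adjusted p = 0.00141). Elovl3 was lower in every SSD-fed WT mouse, at 3321, 8574, 12134, 8975 and 11324 against 13896 to 14592, but missed the threshold (adjusted p = 0.0518). The elongases of polyunsaturated chains, Elovl2 and Elovl5, had log2 fold changes of 0.13 and 0.26 and were not called, and neither was the ketoacyl reductase Hsd17b12 at -0.10.

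In triglyceride synthesis, Gpam, which encodes the mitochondrial enzyme of the first acylation of glycerol phosphate, went from 4590.4 ± 743 (SD, n = 4) to 2074 ± 205 (SD, n = 5) normalized counts in WT mice (log2 fold change -1.14, standard error 0.11, adjusted p = 2.35e-05). Agpat2, the next acyltransferase, fell 1.46-fold (log2 fold change -0.54, standard error 0.12, adjusted p = 0.00535) and Dgat2 fell 1.35-fold (log2 fold change -0.43, standard error 0.11, adjusted p = 0.00958), and both calls were lost under same-total and quantile scaling. Dgat1 was not called, at 545 to 582 normalized counts on NCD and 472 to 577 on SSD (95% interval of the log2 fold change -0.22 to 0.15). Pnpla3 (chr15:84052038-84071437), an acylhydrolase of lipid droplets, had few reads and varied widely, with 26.5, 168, 209 and 54.1 normalized counts on NCD and 12.6, 15.2, 24.7, 19.5 and 8.16 on SSD. All SSD-fed WT mice were below the lowest NCD-fed one, which stood close to them (log2 fold change -2.41, standard error 0.54, adjusted p = 0.00524). Mogat1, which acylates monoacylglycerol, was at 9.12 to 19.3 and 9.77 to 32.9, and was not called.

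The lipins, phosphatases that turn phosphatidate into diacylglycerol, gave the only rise among the members. Lpin2 (chr17:71489555-71556812) was at 4368, 6143, 6102 and 5634 normalized counts on NCD and at 8829.6, 8075, 7964, 10179 and 11753 on SSD, a 1.68-fold rise (log2 fold change 0.75, standard error 0.14, adjusted p = 0.00181) with every SSD-fed mouse above every NCD-fed one. Lpin1 (chr12:16585670-16696967) was at 1913, 3103, 3079 and 2802 and 3141, 2522, 3024, 3853 and 6932, of which only SSD-fed mouse 5 and, by less, mouse 4 and mouse 1 were above the highest NCD-fed mouse. It was not called (log2 fold change 0.44, adjusted p = 0.189). Rdh11 (chr12:79221111-79239067), a retinal reductase known as an SREBP target, was at 1752, 2240.2, 2451 and 1834 on NCD and at 429, 449, 458, 455 and 502 on SSD. The groups lay far apart (log2 fold change -2.16, standard error 0.11, adjusted p = 6.71e-08).

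**Figure D3:**
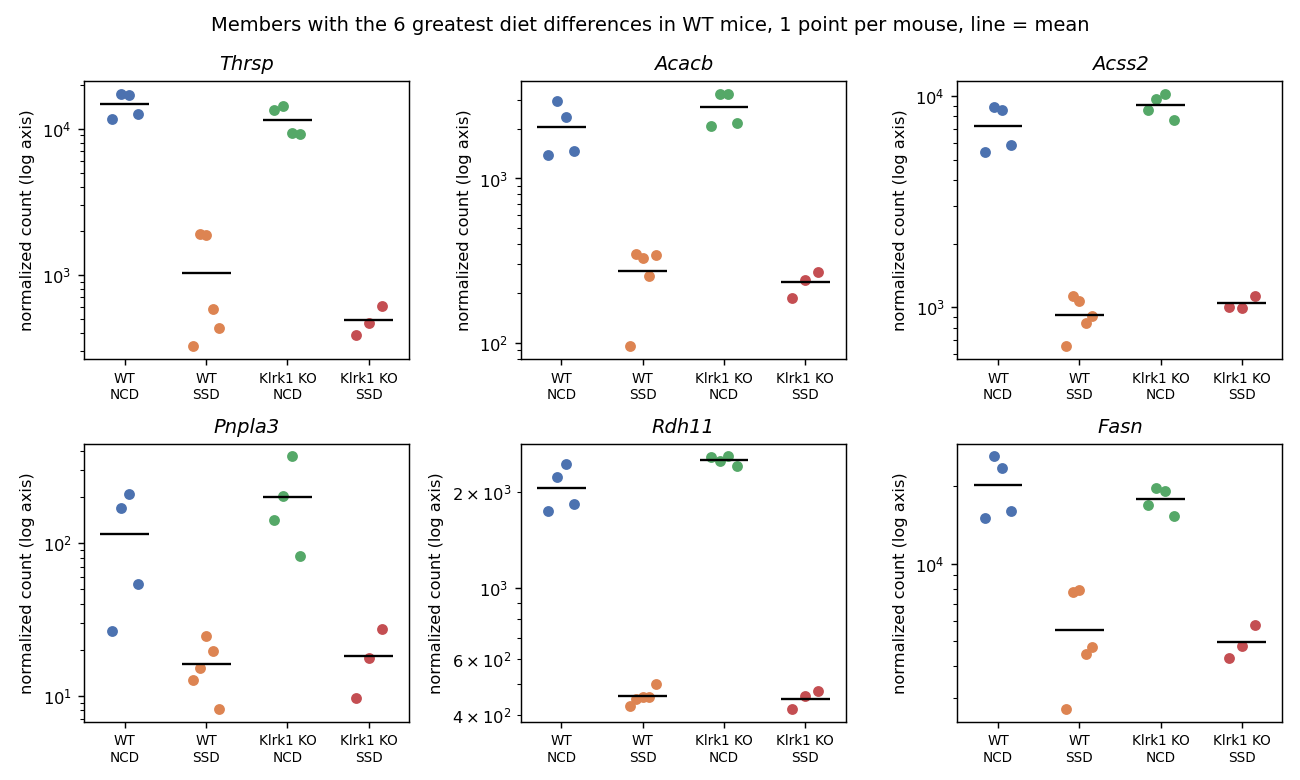
Normalized counts (y axis, log scale) of the 6 members with the greatest called diet differences in WT mice, in the 4 groups (x axis), with 1 point per mouse and a line at the mean. In each panel all SSD-fed mice of a genotype lie below all NCD-fed mice of that genotype, and Thrsp is at 11588 to 17312 against 324 to 1887 in WT mice.

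Klrk1 KO mice, which share no animal with the comparison above, had 21 members lower and 1 higher on SSD than on NCD. Over the 12904 genes tested, 16% were lower and 13.4% higher, and the members' median was -0.50 on the log2 scale, beside -0.00 for all genes. Scaled to the same total, the members' calls became 17 lower and 7 higher. The median of all genes was then 0.25, with 6.25% of all genes lower and 37.4% higher. Of the members that fell, 17 did so in both genotypes, which is 94.4% of those in WT mice and 81% of those in Klrk1 KO mice. Over all genes tested, the falls in both genotypes were 55.8% of those in WT mice and 62.2% of those in Klrk1 KO mice. The 17 are Nr1h3, Acly, Acss2, Aacs, Acacb, Thrsp, Mid1ip1, Fasn, Pgd, Fads1, Elovl1, Elovl6, Tecr, Gpam, Agpat2, Pnpla3 and Rdh11. In Klrk1 KO mice the call of Agpat2 was lost in 5 of 18 alternatives. Pgd had a log2 fold change of -0.82 in Klrk1 KO mice (adjusted p = 4.71e-05), beside -0.33 in WT mice. This difference between the genotypes was not called by limma's test (interaction adjusted p = 0.106), but it was called with DESeq2 (adjusted p = 0.0427).

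The 6 members with the greatest falls in WT mice also fell in Klrk1 KO mice. Thrsp was at 13328, 14262, 9266 and 9202 normalized counts on NCD and at 386, 469.8 and 611 on SSD (log2 fold change -4.55, standard error 0.18, adjusted p = 1.50e-08). Acacb was at 2095, 3276, 3284 and 2185 and 188, 239 and 271 (log2 fold change -3.52, standard error 0.18, adjusted p = 1.18e-07). Acss2 was at 8597, 9684, 10255 and 7694 and 1001, 997 and 1131 (log2 fold change -3.11, standard error 0.10, adjusted p = 3.57e-09). In none of these did the diets overlap. Log2 fold changes were -3.27 for Pnpla3, -2.48 for Rdh11 and -1.85 for Fasn, with adjusted p-values of 0.000238, 2.67e-09 and 7.55e-07. With 3 mice against 4 the exact two-sided permutation test of a single gene cannot go below 0.0571, so limma's test over all genes carries these calls.

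Called in Klrk1 KO mice and not in WT mice were the falls of G6pdx, Scd1, Lpin1 and Lpin2 and the rise of Srebf1, and called in WT mice and not in Klrk1 KO mice were the fall of Dgat2 and the rise of Lpin2. The lipins are described with the genotypes below. Scd1 was at 167139, 178684, 204770 and 156478 normalized counts on NCD and at 91198, 114090 and 125025 on SSD in Klrk1 KO mice, with no overlap (log2 fold change -0.69, standard error 0.15, adjusted p = 0.00505), and quantile normalization lost this call. G6pdx was at 293, 424, 361 and 209 and 117, 96.4 and 92.6 (log2 fold change -1.61, standard error 0.20, adjusted p = 0.00016). Srebf1 was at 4063, 4313, 4503 and 4755 and 6387, 4688 and 6642 with 1 SSD-fed mouse inside the NCD range (log2 fold change 0.41, standard error 0.12, adjusted p = 0.022), a call that 5 of 18 alternatives lost. The diet responses of these genes did not pass the test of the difference between the genotypes (interaction adjusted p = 0.387 for Scd1, 0.109 for G6pdx, 0.589 for Srebf1 and 0.436 for Dgat2). For G6pdx it was called with DESeq2 (adjusted p = 0.0319) and without NCD-fed WT mouse 3 (adjusted p = 0.0499). Mlxipl was at 20511, 18704, 29664 and 17759 on NCD and 19359.5, 21369 and 19058 on SSD and was not called, with a sign that turned under same-total and quantile scaling. Nr1h3 was at 2611, 2555, 2229 and 2545 and 2082, 2032 and 2087, lower by 1.2-fold (adjusted p = 0.0276), and 10 of 18 alternatives lost that call. The fall of Mid1ip1 in Klrk1 KO mice (log2 fold change -0.40) was lost with same-total scaling and with all 4 groups in 1 model. The 14 members not called in Klrk1 KO mice were Mlxipl, Nr1h2, Acaca, Me1, Pklr, Scd2, Fads2, Elovl2, Elovl3, Elovl5, Hsd17b12, Dgat1, Dgat2 and Mogat1.

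On NCD, Klrk1 KO mice differed from WT mice in 5 members. Higher were Lpin1, Lpin2 and Elovl5, and lower were Srebf1 and Mid1ip1. Of all 12845 genes tested, 6.41% were higher and 6.66% lower, so 3 and 2 of 36 members are shares near the background in this fit. With the labels' mouse numbers as a block, 12 members were called, 7 higher and 5 lower, above the 18.4% of all genes. The same mice without the block gave 6 members, beside 14.6% of all genes. A required change of 1.5-fold left 2 members. Lpin1 was at 5198, 8557, 5796 and 5878 normalized counts in Klrk1 KO mice against the 1913 to 3103 of WT mice given above, 2.33-fold higher (log2 fold change 1.22, standard error 0.17, adjusted p = 0.00117). Lpin2 was at 8447, 8812, 7984 and 9182 against 4368 to 6143 (log2 fold change 0.64, standard error 0.11, adjusted p = 0.00409). For both genes every Klrk1 KO mouse was above every WT mouse.

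Mid1ip1 was at 1821, 1744, 1642 and 1457 normalized counts in NCD-fed WT mice and 1011, 1287, 1153 and 1237 in NCD-fed Klrk1 KO mice, with no overlap (log2 fold change -0.51, standard error 0.10, adjusted p = 0.00865). Srebf1 was at 4063 to 4755 in Klrk1 KO mice, below the 5246 to 6901 of WT mice (log2 fold change -0.42, standard error 0.10, adjusted p = 0.0187), and lost its call when Klrk1 KO mouse 1 or 2 was left out and with all 4 groups in 1 model (adjusted p up to 0.145 over all alternatives). Elovl5 was at 8923, 10758, 11594 and 7867 in WT mice and 12945, 12458, 18262 and 13435 in Klrk1 KO mice (log2 fold change 0.54, standard error 0.14, adjusted p = 0.029). The highest value, of Klrk1 KO mouse 3, stood far above the rest, and without that mouse, without WT mouse 1, or without WT mouse 5 and Klrk1 KO mouse 4 together, Elovl5 was no longer called. The NCD-fed Klrk1 KO mice are also the mice with the higher mitochondrial share given above, and the part of that share in these differences was not tested.

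**Figure D4:**
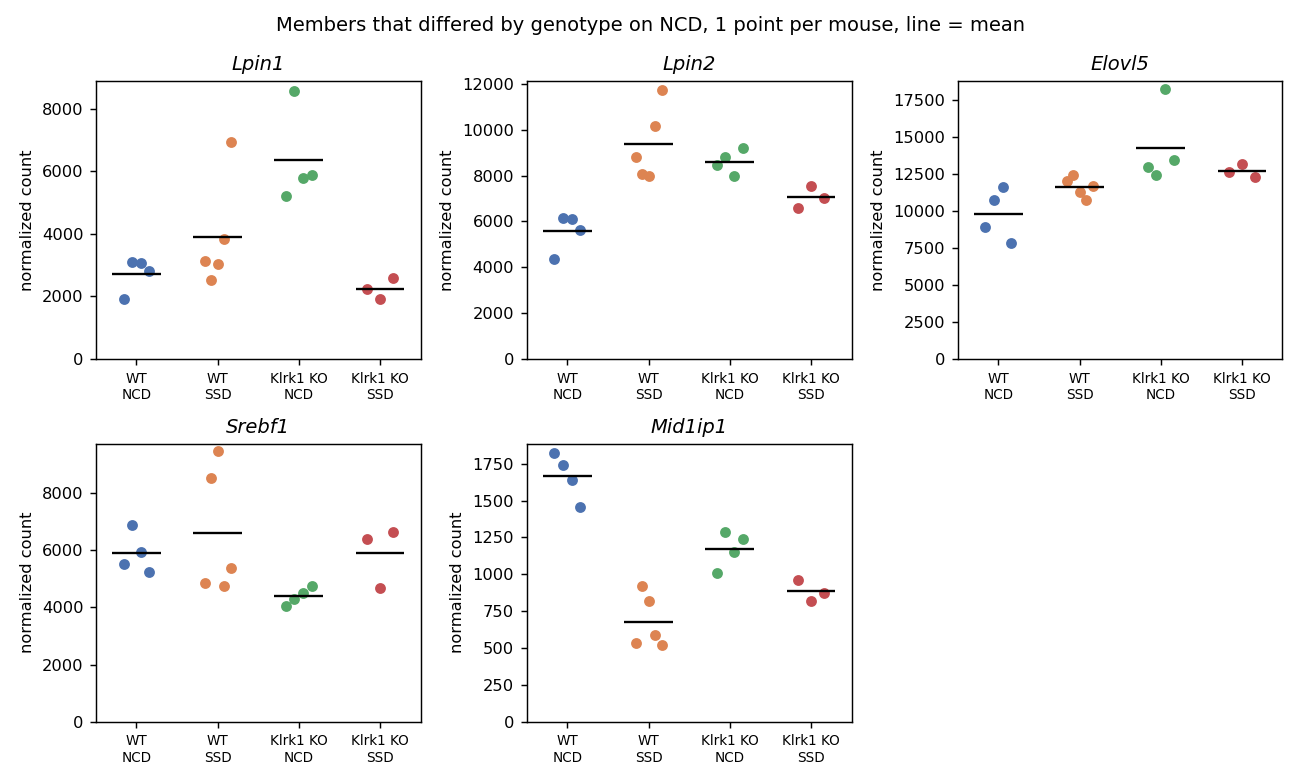
Normalized counts (y axis, from 0) of the 5 members that differed between Klrk1 KO and WT mice on NCD, in the 4 groups (x axis), with 1 point per mouse and a line at the mean. Lpin1 and Lpin2 are higher on SSD than on NCD in the means of WT mice and lower on SSD in Klrk1 KO mice.

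The diet response differed between the genotypes for 2 members, Lpin1 and Lpin2. Over 13068 genes tested for this interaction, 0.321% were called with a positive and 0.559% with a negative value. The mean of Lpin1 went from 2724 ± 558 (SD, n = 4) to 3894 ± 1763 (SD, n = 5) normalized counts in WT mice and from 6358 ± 1497 (SD, n = 4) to 2248 ± 343 (SD, n = 3) in Klrk1 KO mice. SSD-fed Klrk1 KO mice, at 2239.6, 1909.7 and 2595, were all below all NCD-fed Klrk1 KO mice, a fall of 2.8-fold (adjusted p = 3.78e-05). The interaction, Klrk1 KO minus WT, was -1.93 on the log2 scale (standard error 0.35, adjusted p = 0.0158). Lpin1 kept this call in all 26 alternatives.

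For Lpin2 the mean went from 5562 ± 828 (SD, n = 4) to 9360.1 ± 1603 (SD, n = 5) normalized counts in WT mice and from 8606 ± 512 (SD, n = 4) to 7062 ± 482 (SD, n = 3) in Klrk1 KO mice. Its fall in Klrk1 KO mice was small (log2 fold change -0.29, standard error 0.08, adjusted p = 0.0242) and was lost in 9 of 18 alternatives. The interaction of Lpin2 was -1.03 (standard error 0.18, adjusted p = 0.0138), and it was called in 24 of 26 alternatives. Mid1ip1 had diet differences of -1.33 in WT and -0.40 in Klrk1 KO mice, and its interaction of 0.93 missed the threshold (adjusted p = 0.0526). It was called with DESeq2 (adjusted p = 0.0109) and without SSD-fed WT mouse 2 (adjusted p = 0.0173) or mouse 3 (adjusted p = 0.0415). For the 6 greatest falls in WT mice the interaction was not called, with 95% intervals of -1.66 to 0.97 for Thrsp, -1.57 to 0.46 for Acacb, -0.67 to 0.36 for Acss2, -2.55 to 0.83 for Pnpla3, -0.61 to -0.03 for Rdh11 and -0.70 to 0.88 for Fasn. The interval of Rdh11 excludes 0 (adjusted p = 0.244).

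On SSD, 0 of the 36 members differed between Klrk1 KO and WT mice by limma's test or by edgeR, while 1.22% of the 13116 genes tested were higher and 1.68% lower. DESeq2 on the recovered reads called 4 members, all lower in Klrk1 KO mice, namely Pgd, Scd2, Hsd17b12 and Lpin1, while it called 5.23% of all genes lower and 4.08% higher. At an unadjusted p under 0.05, limma's test gave 9 members, beside 22.9% of all genes in the test. These were Pgd, Hsd17b12, Scd2, Lpin2, Lpin1 and G6pdx with lower levels in Klrk1 KO mice, and Tecr, Mid1ip1 and Mlxipl with higher levels. The least adjusted p was that of Pgd, at 1038, 871, 842, 904 and 757 normalized counts in SSD-fed WT mice and 669, 707 and 646 in SSD-fed Klrk1 KO mice (log2 fold change -0.38, adjusted p = 0.0738). The 95% intervals of the log2 fold change were -0.22 to 0.17 for Rdh11, -0.20 to 0.28 for Gpam and -0.65 to 0.42 for Srebf1, and -1.94 to 0.54 for Thrsp, which leaves room for larger differences in Thrsp than in Rdh11. Without SSD-fed WT mouse 1 the count was 2 (Scd2 and Acaca, both lower in Klrk1 KO mice), beside 5.49% of all genes, and without mouse 5 it was 1 (Pgd), beside 4.01%.

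Beside the members, 7 lists of neighbouring pathways were described by their counts, to be read against the percentages of all genes given above. The test of the difference between the genotypes in the diet response called Nr0b2 on the list of LXR targets, with a negative value. On each of the other lists it called 0 genes, so differing counts of rises or falls in the 2 genotypes are not themselves a called difference. All 10 genes of cholesterol synthesis and uptake that SREBP2 controls fell on SSD in WT mice (median on the log2 scale -3.20), and all 10 fell in Klrk1 KO mice (median -2.71). Of 10 LXR targets outside lipogenesis, 7 rose and 1, Cyp7a1, fell in WT mice, and 7 rose and Cyp7a1 fell in Klrk1 KO mice, with Abca1 in place of Nr0b2 among the rises. The sterol exporter genes Abcg5 and Abcg8 rose by log2 fold changes of 2.53 and 2.38 in WT mice and 2.01 and 2.13 in Klrk1 KO mice. Srebf1, which is itself a known LXR target, was not called in WT mice and was higher on SSD in Klrk1 KO mice (0.41, adjusted p = 0.022).

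Of 10 genes of fructose and glucose entry, 1 rose and 2 fell in WT mice, and 5 rose and 2 fell in Klrk1 KO mice. Of 9 genes of citrate and NADPH supply tested, 5 fell in WT mice and 6 in Klrk1 KO mice, and none rose. The citrate exporter gene Slc25a1 fell by log2 fold changes of 0.83 and 0.69. Of 10 genes that control SREBP and ChREBP, 2 rose and 4 fell in WT mice, and 3 rose and 4 fell in Klrk1 KO mice. Both Srebf2 (log2 fold change -1.24 in WT mice) and Insig1, a retention factor of SREBP that is itself an SREBP target (-2.55), were among the falls.

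Of 14 genes tested from the list of other acyl-CoA and glycerolipid synthesis, 3 rose and 3 fell in WT mice, and 6 rose and 5 fell in Klrk1 KO mice. The rises in both genotypes include Pnpla2, which encodes a triglyceride lipase and not an enzyme of synthesis, and which is also 1 of the adipocyte markers above. Gpat3, a microsomal relative of Gpam, rose by a log2 fold change of 3.94 in WT mice and 2.85 in Klrk1 KO mice, whereas Gpam fell. The acyl-CoA synthetase genes Acsl3, Acsl4 and Acsl5 fell in both genotypes, by log2 fold changes of 0.92, 0.88 and 0.90 in WT mice. Of the other desaturation and elongation genes, 7 were tested in WT mice, where Elovl7 and Hacd4 rose and Fads6 fell. In Klrk1 KO mice, Hacd3 rose and Fads6 fell among 6 tested.

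**Figure D5:**
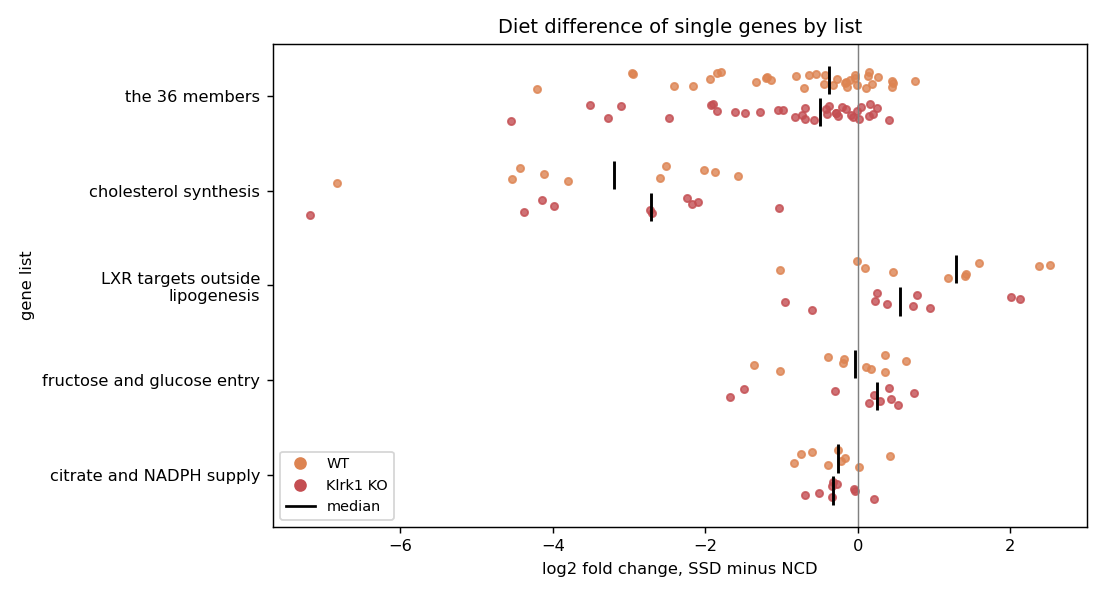
Log2 fold change of SSD against NCD (x axis) of each gene tested of the 36 members and of 4 of the other lists (y axis), with WT mice in orange, Klrk1 KO mice in red and a black line at each list's median. All 10 genes of the cholesterol list lie left of 0 in both genotypes, while the 36 members spread from -4.20 to 0.75 in WT mice.

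The members also differed among mice of 1 group. In SSD-fed WT mice the median coefficient of variation of the members was 19.3%, and in SSD-fed Klrk1 KO mice it was 9.97%, beside 10.9% and 8.32% for the genes tested with a mean of at least 100 normalized counts. On NCD it was 17.2% in WT and 10.4% in Klrk1 KO mice, beside 11.6% and 9.12%. Thrsp was the most variable in SSD-fed WT mice (77.6%). Mice 2 and 3 held both of the top 2 places in 17 of 36 members, against 10.2% of 13068 genes. This pair of mice was picked out after the values were seen. Srebf1, Fasn, Thrsp, Mid1ip1, Scd1, Me1, Pklr, Gpam and Elovl6 are among these 17. The same mice had 1255 and 1133 normalized counts of Cfd, which encodes adipsin and was fixed here as an adipocyte marker, against 9.3 to 91.4 in the 3 others, while Adipoq was at 0.845 and 1.9 and Lep at 0. SSD-fed WT mouse 1 was the lowest of its group in 20 of 36 members, and in 28.5% of all genes. In NCD-fed WT mice, mouse 2 was the highest in 19 of 36 members and mice 1 and 5 were the lowest in 15 and 17, beside 25.8%, 29.8% and 26.5% of all genes. The part of Cfd in the levels of these members was not tested.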

How the data were processed

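Whole-liver RNA was sequenced as 100-base single reads. An mRNA kit is given in the labels and a total RNA kit in the study's methods. According to the submitters' processing notes and the study's methods, the authors aligned reads to GRCm39 with STAR, counted them per gene with FeatureCounts on GENCODE, and deposited a signal per gene and mouse, a normalized count (reads divided by 1 factor per mouse). How the factors were made is not given in the sources used here. A GC fraction per gene, deposited beside the counts, entered no test, and the authors' own fold changes and p-values were left unused. Dividing by each mouse's step gave whole reads (within 0.02) for 100% of values.

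Members and lists were chosen with earlier results of these data known. Groups came from the labels. The p-values measure the spread between mice. Genes with a mean of at least 10 were tested on log2(normalized count + 1) with limma 3.58.1 (trend method, R 4.3.3). Each model held the mice of its comparison, and the interaction held all 16. P-values were adjusted over all genes tested by the Benjamini-Hochberg method, with a threshold of 0.05 for a call. Fold changes on this scale understate changes of low genes. Per-mouse values are given for the 6 greatest called falls or rises in WT mice, for members called between genotypes or in the interaction, for Srebf1, Mlxipl and Nr1h3, and, picked with their values known, for further members. The alternatives tried were pseudocounts of 0.5 and 10, a minimum of 50 or none, same-total scaling, quantile normalization, whole reads tested by DESeq2 1.42.0 or by the quasi-likelihood method of edgeR 4.0.16, blocking on the labels' mouse numbers, a fit over all 4 groups, a required change of 1.5-fold, and each mouse left out. The model was tested on simulated data. Of the members, 11 overlap another gene of the table. Promoters came from GRCm39 with GENCODE M39, and 1 of them and some list genes are not reported here.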

Additional observations from a re-analysis of the deposited data

Results flagged for a closer look

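In 5 cases 1 mouse lay apart from the rest of its group in a member by Dixon's test, among 108 pairs of member and group. Chance flags about 1 in 20, or 5.4. Of the 5, 3 were in SSD-fed WT mouse 1, which had 8374 normalized counts of Mlxipl against 15190 to 17120 in the other 4 mice, 522.8 of Scd2 against 164.1 to 232.3, and 472.3 of Dgat1 against 558.4 to 577.2. The same mouse had the highest level of Col1a1 and of Trem2, a macrophage gene, in its group, and the part of other cell types in its values was not tested. SSD-fed WT mouse 2 had 2429 normalized counts of Gpam against 1929 to 2063. NCD-fed Klrk1 KO mouse 3 had 18260 of Elovl5 against 12460 to 13430.

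The diet response of 2 members differed between the genotypes in the interaction test. It was -1.93 on the log2 scale for Lpin1 (adjusted p = 0.0158) and -1.03 for Lpin2 (adjusted p = 0.0138). Lpin1 was lower on SSD in 3 of 3 Klrk1 KO mice than in any NCD-fed Klrk1 KO mouse. Lpin2 was higher on SSD in 5 of 5 WT mice than in any NCD-fed WT mouse.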

How the results depend on the processing

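Across the alternatives, 1082 of 1154 values of called or described members kept their direction and their side of the threshold, 53 lost the call, 1 gained it and 18 changed sign. Scaling each mouse to the same total moved the median log2 fold change of the members to -0.036 in WT mice and -0.24 in Klrk1 KO mice, and quantile normalization gave -0.34 in Klrk1 KO mice. Apart from the called fall of Pgd in WT mice, the values that changed direction were not called. Under same-total scaling, SSD against NCD turned for Mlxipl (0.19 in WT and 0.17 in Klrk1 KO mice) and Pgd (0.016 in WT mice), and under quantile normalization for Mlxipl (0.18 and 0.036). Leaving out 1 mouse at a time, Mlxipl ranged from -0.31 to 0.031 in WT mice (positive without SSD-fed mouse 1) and from -0.18 to 0.070 in Klrk1 KO mice (positive without NCD-fed mouse 3), and Srebf1 in WT mice from -0.042 to 0.21 (negative without SSD-fed mouse 2 or 3). Between the genotypes on SSD, Nr1h3 turned to -0.069 and -0.0055 under same-total and quantile scaling, and Srebf1 ranged from -0.22 to 0.046 when 1 mouse was left out (positive without SSD-fed WT mouse 3 or Klrk1 KO mouse 2). The interaction of Mlxipl turned to -0.019 and -0.14 under same-total and quantile scaling and ranged from -0.12 to 0.23 when 1 mouse was left out (negative without NCD-fed WT mouse 5, SSD-fed WT mouse 1 or NCD-fed Klrk1 KO mouse 4). The cause was not tested for these.

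Members called between the genotypes on SSD numbered 1 with same-total scaling, 4 with DESeq2, and 2 with all 4 groups in 1 model, in place of 0, while the genes called over the whole table were 466, 1221 and 957, in place of 381. On NCD a fold limit of 1.5 left 2 of 5 members and 744 of 1679 genes. DESeq2 called 5 members for the interaction, namely Lpin1, Lpin2, Pgd, G6pdx and Mid1ip1. It called 460 of all genes, against 115 by limma's test. Leaving out 1 mouse at a time gave 18 to 20 members for the diet in WT mice, 18 to 24 in Klrk1 KO mice, 0 to 2 between the genotypes on SSD, 4 to 7 on NCD and 2 to 3 for the interaction. Over all genes, the shares called ranged in the same order from 27.5% to 34.2%, 18.6% to 28.4%, 0.342% to 5.49%, 5.59% to 17.1% and 0.283% to 1.43%. Same-numbered mice did not deviate together in any comparison by the rule used (correlations from -0.13 to 0.25, not all above 0.1), so the numbers were not taken as pairs. With the replicate number as a block, the counts were 17, 20, 2, 12 and 1, in the order above, and without the block on the same mice they were 19, 20, 0, 6 and 1. The shares of all genes called were 22.7%, 24.9%, 5.41%, 18.4% and 0.391% with the block, and 28.3%, 25.6%, 3.61%, 14.6% and 0.582% without it. The 12 of 36 members called on NCD with the block, 7 higher and 5 lower, thus lay above the share of all genes. The setting without the block on the same mice was chosen after seeing the data. With these numbers of mice, simulated 2-fold changes were found in 55% of genes for the interaction, in 92.9% for the diet in WT mice and in 80.8% for the diet in Klrk1 KO mice. Between the genotypes they were found in 91% on SSD and 88.9% on NCD. The simulation gave every gene the same spread between mice. These shares therefore do not hold for members that varied more, such as Thrsp with a coefficient of variation of 77.6% in SSD-fed WT mice.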
